A study of Nothobranchius furzeri with 15 samples.

Results

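In brain and muscle of the turquoise killifish, 44 of 1810 deposited circular RNAs (circRNAs) had about as many circular as linear reads, or more. A circRNA is a closed loop formed when the splicing machinery joins a downstream splice donor back to an upstream splice acceptor of the same transcript. The loop has no free ends, resists exonucleases and can outlive the linear mRNA of its host gene, and brain is known in mammals and flies as a tissue rich in such loops. For most hosts the linear transcript is far more abundant, so positions where circular reads match it are the exception. The 44 were selected by 2 values summed over all 15 libraries: 20 or more circular reads, and a circular share of 40% or more. The circular share is the percentage of circular reads among circular plus linear reads at the position. Both selecting values are given below as descriptions, without tests. Of the 1810 circRNAs, 424 had 20 or more circular reads, and the 44 are drawn from these.

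Total RNA was sequenced from Nothobranchius furzeri of strain GRZ-AD, a short-lived fish of seasonal ponds that is used to study ageing. Brain had 3 libraries and muscle had 2 at each of 3 ages, 3.5, 8.5 and 14 weeks, and the labels give no genotype, treatment or sex that separates the groups. The labels do not say whether each library came from 1 animal or from pooled animals, and p-values therefore reflect how much these libraries vary, which may be technical. Nor do they say whether brain and muscle libraries of the same number came from the same animals. The tests between tissues treat all 15 libraries as independent. Depth per library ran from 1343 to 4400 circular reads and from 76515 to 135698 linear reads. Linear reads at hosts of a neuron marker list, scaled to the linear total (CPM), were 41927 to 55130 in brain and 62.4 to 366 in muscle, and those of a skeletal muscle list, which holds flnc, were 271328 to 313076 in muscle. In brain the muscle list stood at 1517 to 3590 CPM in 7 libraries and at 22527 and 17124 in libraries 2 and 3 of 3.5 weeks, so these libraries are left out in turn and together below. The erythrocyte and microglia lists had no host in the table.

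The 44 circRNAs held 9959 circular and 8957 linear reads, which was 23.6% of all circular reads and 0.564% of all linear reads in the tables. Over the whole table the share was 2.59%. Among the 44, the median share was 48.7%, from 40% to 81.6%. Circular reads equalled or exceeded linear reads for 20 of them. The exact 95% binomial interval of the share lay wholly above 50% for 14 and wholly below 50% for 10. Just inside the threshold were myo15aa with 40.2%, zc3h12d with 40% and a circRNA without a host, unannotated.52, with 40%. Just outside were nudcd1 with 39.4%, ogdh.2 with 39.0% and LOC107384050 with 38.9%. The 44 differed from the other 380 circRNAs with 20 or more reads on both sides of the ratio: their median was 121 circular and 133.5 linear reads, against 34 circular and 465.5 linear reads.

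**Figure D1:**
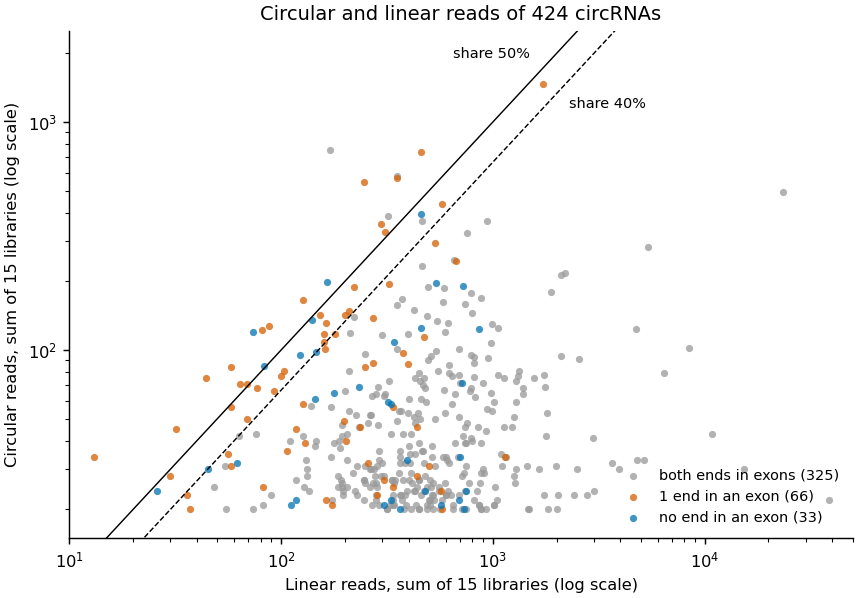
Circular reads against linear reads, each summed over 15 libraries on a log scale, for the 424 circRNAs with 20 or more circular reads; 1 point is 1 circRNA, coloured by how many of its ends lie in annotated exons. The solid line marks a share of 50% and the dashed line 40%; the 44 circRNAs on or above the dashed line are mostly coloured, the 380 below it mostly grey.

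The annotation of the ends was not part of the selection, and its make-up differed between the 44 and the rest. Both ends lay in annotated exons for 5 of the 44 (11.4%), 1 end did for 30 (68.2%) and neither end did for 9 (20.5%). Each end of the 44 outside exons is labelled intergenic in the authors' annotation, also where a host is named. Among the other 380, 84.2% had both ends, 9.47% had 1 end and 6.32% had neither end in an exon. The 1386 circRNAs with under 20 reads looked like these 380, with 82.2% having both ends in exons. Read the other way, 5 of 325 well-covered circRNAs with both ends in exons reached a share of 40% (1.54%). Of those with 1 exonic end, 30 of 66 did (45.5%), and of those with none, 9 of 33 (27.3%). No test was made of these proportions, since the set is defined by the share and circRNAs of 1 genome are not replicates.

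The lower share of the exonic class went with its linear reads. Over the 424 circRNAs, the median number of linear reads was 489 with both ends in exons, 189 with 1 end and 332 with none. The median number of circular reads ran the other way, at 34, 71 and 59. The median share was 7.44%, 38.5% and 20.8%. How the authors counted linear reads at an end that no exon covers is not given in the sources used here, and its part in these shares was not tested.

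**Figure D2:**
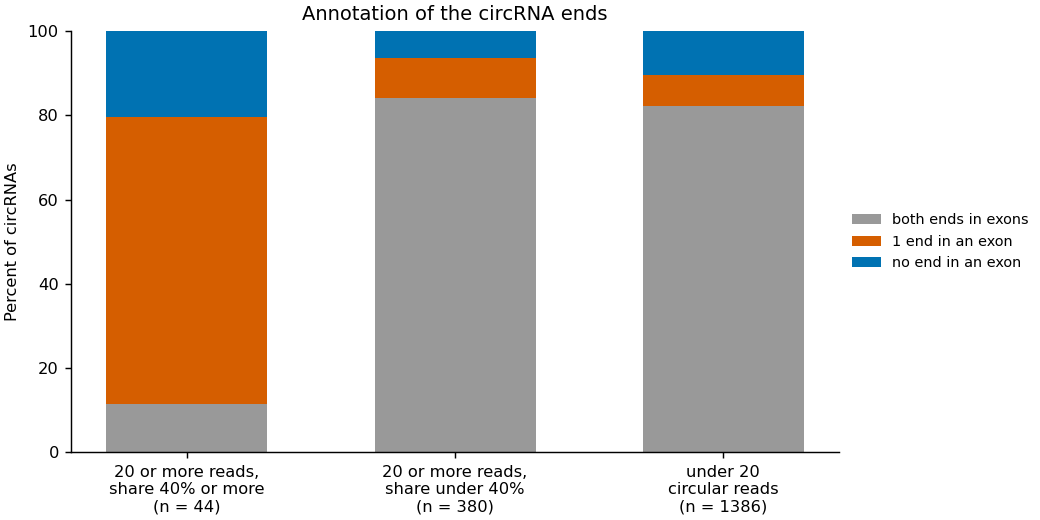
Percentage of circRNAs with both ends, 1 end or no end in an annotated exon, for the 44 circRNAs selected, the 380 others with 20 or more circular reads and the 1386 with fewer. The grey bar for both ends is 11.4% in the selected set, against 84.2% and 82.2%.

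Where 1 end was exonic, the unannotated end was more often the splice donor. It was the donor for 19 and the acceptor for 11 of the 30, and for 16 and 20 of the 36 others of that class. The strand was used to tell the ends apart. The distance between the ends had a median of 7773 bp in the 44 (quartiles 3948 and 12131), against 4128.5 bp in the other 380. It varied with the ends. The 5 with both ends in exons had a median of 1220 bp, against 3850 bp for the 320 others of that class. The 30 with 1 exonic end had 8336 bp, close to the 7458 bp of the 36 others with 1 exonic end. The 9 with no exonic end had 4697 bp, against 3678 bp for the 24 others. The range ran from 330 bp (unannotated.37) to 134480 bp for the circRNA of oxr1, a gene of oxidation resistance (chromosome 3, 29021173 to 29155652, minus strand).

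The 44 circRNAs came from 39 host genes, and 5 lay where the file gives no host. For 33 (75%), no other circRNA of the host was in the table, against 53.4% of the other 380. Another 6 had a second circRNA from the same host (13.6%, against 40.8%). Those other circRNAs had lower shares, which is tied to the selection, since none of them met it. All but LOC107396936.1 and flnc.1 had under 20 circular reads and could not meet it. The circRNA nsun4.1 comes from the gene of a mitochondrial ribosomal RNA methyltransferase (chromosome 5, 47974111 to 47974486, minus strand), has both ends in exons and had 579 circular and 351 linear reads, a share of 62.3%. Its neighbour nsun4.2 shares the start and ends at 47974512, outside an exon. It had 3 circular and 237 linear reads, a share of 1.25% (exact 95% interval 0.259 to 3.61). The circRNA LOC107396936.2 (chromosome 5, 48315654 to 48339877, minus strand) had 165 circular and 127 linear reads, a share of 56.5%. LOC107396936.1, which shares that start and ends at 48339872, had 39 and 129, a share of 23.2%.

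In the other 4 hosts too, the further circRNAs had lower shares. The circRNA slf2.2, from a gene that brings the SMC5-SMC6 complex to damaged DNA, had a share of 49.1%, while slf2.1 with the same start had 4.80%. In ptprz1b, a receptor tyrosine phosphatase of glia in mammals, ptprz1b.1 had 46.0% and ptprz1b.2 with the same start 6.18%. Filamin C is an actin cross-linker of striated muscle, and its circRNA flnc.2 had 46.2%, against 9.52%, 1.81% and 2.71% for flnc.1, flnc.3 and flnc.4. In tmem259, which encodes the membrane protein membralin, tmem259.1 had 41.7% and tmem259.2 had 1.77%. The 44 were 10.4% of the circRNAs with 20 or more reads, and with so few covered circRNAs a list absent from the 44 is given as a count only. None of the 44 came from 35 genes known as circRNA hosts in mammals, which had 20 circRNAs in the table and 3 with 20 or more reads. None came from the lists for synapse (58 circRNAs, 11 with 20 or more reads) or splicing (3 and 2), and the chromatin list (6 and 0) had none that could meet the rule. Of the ubiquitin ligase list (5 and 3), 1 was among the 44, from ubr3, a ligase of the N-recognin family.

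The circRNAs with the most reads illustrate the range. The highest share belonged to LOC107387794 (chromosome 16, 23317792 to 23319303, plus strand, both ends exonic), a gene the files leave without a name. Its circular over linear reads in brain were 77 over 22, 73 over 15 and 62 over 18 at 3.5 weeks, 76 over 21, 53 over 11 and 85 over 8 at 8.5 weeks, and 82 over 20, 86 over 13 and 69 over 15 at 14 weeks. In muscle they were 5 over 2 and 10 over 3, then 38 over 8 and 13 over 4, then 12 over 6 and 16 over 5. Circular reads exceeded linear reads in each of the 15 libraries, with shares of 77.5% to 91.4% in brain and 66.7% to 82.6% in muscle.

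The circRNA flnc.2 had the most reads of the set (chromosome 2, 1030947 to 1031338, plus strand, acceptor outside exons). In muscle it had 147 circular over 145 linear and 221 over 241 reads at 3.5 weeks, 352 over 334 and 272 over 350 at 8.5 weeks, and 141 over 179 and 186 over 184 at 14 weeks. All 6 muscle libraries lay close to even, with shares of 43.7% to 51.3%. In brain, where 10, 13 and 25, then 20, 10 and 35, then 7, 18 and 15 circular reads were counted at the 3 ages, the share ran from 13.2% to 48.1% with a median of 36.6%, against 49.1% in muscle. Of the brain libraries, those with 48.1% and 44.9% lay within the muscle range and 7 lay below it. The 48.1% was that of library 2 of 3.5 weeks, which had the highest summed level of the muscle markers in brain (22527 CPM). Library 3 of 3.5 weeks, with 17124 CPM, was among the 7 below. The 44.9% was that of library 3 of 8.5 weeks, with 2175 CPM. The part of the marker level in these shares was not tested.

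Another, eif3l, comes from a gene whose product is part of the initiation complex of protein synthesis (chromosome 6, 4671792 to 4688940, minus strand, donor outside exons). It was abundant in both tissues. In brain it had shares of 69.0%, 72.2% and 50.7% at 3.5 weeks, 60.3%, 63.0% and 60.2% at 8.5 weeks, and 59.7%, 63.1% and 62.1% at 14 weeks. In muscle it had 61.6% and 58.5%, then 61.1% and 55.7%, then 62.4% and 71.4%. Every library had more circular than linear reads, and the tissues overlapped. The mean was 62.3% ± 6.06 in brain (SD, n = 9) and 61.8% ± 5.33 in muscle (SD, n = 6).

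Other circRNAs were measured in brain almost alone. That of bace1, a membrane protease that makes the first cut in amyloid beta formation (chromosome 7, 4261005 to 4288732, plus strand, acceptor outside exons), had 566 circular and 354 linear reads in brain and 1 and 0 in muscle. Its share was 61.2% ± 2.98 over the 9 brain libraries. That of klc1, a light chain of the motor protein kinesin (chromosome 18, 4797685 to 4805789, minus strand, donor outside exons), had 540 and 231 reads in brain and a share of 69.5% ± 3.13. The SD of both shares over libraries was below the SD expected from counting, with ratios of 0.590 and 0.603. Among 36 circRNAs with 100 or more reads in brain this ratio ran from 0.537 (faap24) to 1.51, so low values were not particular to bace1 and klc1.

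Over the set, the spread between libraries was near that of counting. For each circRNA with 100 or more reads in a tissue, the SD of the share over libraries was divided by the SD expected from the number of reads. The median ratio was 0.998 for 36 circRNAs in brain and 0.984 for 8 in muscle. It was above 1.5 for flnc.2 in brain (1.51) and, in muscle, for nsun4.1 (1.84) and gulp1 (1.60), an adaptor for the engulfment of dying cells. For nsun4.1 the muscle shares were 36.4% and 68.9% at 3.5 weeks, 65.0% and 59.5% at 8.5 weeks and 47.6% and 66.0% at 14 weeks, so the lowest and the highest were replicates of 1 age.

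Summed over the 44, the share in single libraries lay between 52.3% and 54.9% in brain and between 46.4% and 53.8% in muscle. In muscle flnc.2 alone held 1319 circular and 1433 linear reads, more than any other of the 44, so the muscle sum largely follows it. Only 19 to 28 of the 44 had a circular read in a muscle library, against 40 to 44 in brain. Over the other 1766 circRNAs the summed share moved more for its size. In muscle it was 1.06% and 1.02% at 3.5 weeks, 2.75% and 2.61% at 8.5 weeks and 1.48% and 2.00% at 14 weeks, so the 8.5-week libraries were highest and no ages overlapped. The 44 in the same libraries had 51.7% and 50.2%, 53.8% and 50.3%, and 46.4% and 51.5%, and the ages overlapped. In brain the means for the other circRNAs, in the order of age, were 1.69% ± 0.0783, 2.38% ± 0.405 and 2.16% ± 0.327 (SD, n = 3), and the 44 had 52.8% ± 0.480, 53.6% ± 1.13 and 53.5% ± 1.22. The difference in course between the sets was not tested, and the level of the 44 is set by their selection.

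**Figure D3:**
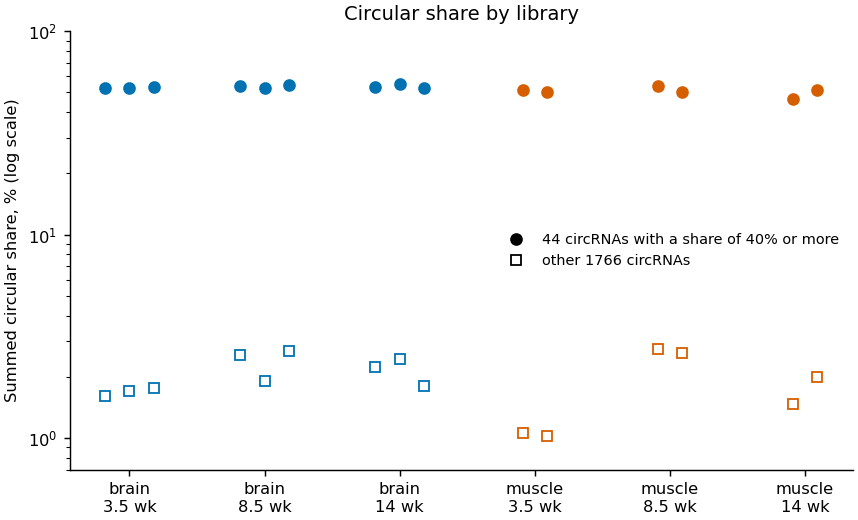
Circular share on a log scale for each of the 15 libraries, by tissue and age, summed over the 44 circRNAs (filled circles) and over the other 1766 (open squares). The filled circles stay between 46.4% and 54.9%, while the open squares run from 1.02% to 2.75%.

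Since the threshold was applied to sums over both tissues, the rule was also applied to 1 tissue and the share read in the other, which the choice had not used. In the 9 brain libraries alone, 39 circRNAs met the rule, and 23 of them had 20 or more reads in muscle. Of these 23, 19 had a share of 40% or more in muscle, with a median of 53.1% (22.4% to 77.0%). In the 6 muscle libraries alone, 28 met the rule and 27 had 20 or more reads in brain. Of these 27, 15 reached 40% in brain, with a median of 42.6%. Among those that did not, myo5aa had 62 circular and 57 linear reads in muscle and 0 and 769 in brain, si:ch211-200p22.4 had 175 and 251 against 12 and 334, and kiaa1109.1 had 23 and 33 against 4 and 213. These 3 are outside the 44, because their brain reads brought the pooled share below 40%, and were picked here after their values were seen.

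Within the 44, 27 had 20 or more reads in each tissue, and the median absolute difference between the tissues was 5.69 percentage points. It was within 10 points for 19 of them. The share was 82.3% in brain and 77.0% in muscle for LOC107387794, 64.2% and 60.1% for nsun4.1, 62.7% and 60.5% for eif3l, 55% and 53.9% for ubr3, 46.4% and 45.8% for LOC107376304, and 43.1% and 43.8% for oxr1. For atp2a2a, a calcium pump of the sarcoplasmic and endoplasmic reticulum, it was 54.5% and 48.2%, and for cox19, an assembly factor of cytochrome oxidase, 60.7% and 59.3%. The direction was split, with brain higher for 13 and muscle higher for the other 14.

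The test across tissues used the ratio of circular to linear reads in an edgeR quasi-likelihood fit over all circRNAs with 10 or more circular reads. It called 36 of 896 (4.02%) at a Benjamini-Hochberg adjusted p under 0.05, of which 1 was higher in brain and 35 in muscle. Of the 424 with 20 or more reads it called 32 (7.55%), and of the 44 it called 1, klc1, the one higher in brain. The low count within the 44 is partly tied to the pooled selection. In brain klc1 had 540 circular and 231 linear reads, with shares of 63.5% to 74.0%. With 4 circular reads in muscle, klc1 met the selection through its brain reads, so a higher share in brain is tied to the selection. In muscle it had 2 over 3 and 0 over 0 at 3.5 weeks, 0 over 4 and 0 over 1 at 8.5 weeks, and 2 over 5 and 0 over 2 at 14 weeks. Its ratio was higher in brain by 3.39 on the log2 scale (SE 1.10, adjusted p = 0.0497, edgeR). This rests on 19 muscle reads, and the call held in 2 of 16 fits with libraries left out, where the adjusted p lay between 0.0472 and 1. For 14 of the 44 the size of the difference could not be fitted; 13 of them had an age group with no read of either kind in muscle, and the other, anapc2, had age groups with 0 circular or 0 linear reads there.

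The other large differences did not pass. The circRNA zc3h12d, from a gene of an RNA-cleaving zinc finger protein (chromosome 1, 62170794 to 62172013, minus strand, both ends exonic), had a share of 24.4% in brain (11 of 45 reads) and 51.7% in muscle (31 of 60 reads). Its log2 difference was -3.05 (SE 1.15, adjusted p = 0.139, edgeR), and 9 of its muscle circular reads came from library 3 of 3.5 weeks, which had 0 linear reads. For unannotated.52 the share was 15.6% in brain (5 of 32) and 58.1% in muscle (25 of 43). For anapc2, a subunit of the anaphase-promoting complex, it was 41.5% and 70.4%, and 12 of its 19 muscle circular reads came from 1 library. LOC107386477, labelled as similar to a carotene oxygenase in the file, had 46.3% in brain and 22.4% in muscle (log2 1.47, SE 0.80, adjusted p = 0.571, edgeR).

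The difference of flnc.2 was the best covered of these. Its pooled share was 35.0% in brain (exact 95% interval 30.5 to 39.7) and 47.9% in muscle (46.1 to 49.8), and the intervals, which cover counting error only, did not overlap. The edgeR fit gave a log2 difference of -0.81 (SE 0.52, 95% interval -1.83 to 0.20, adjusted p = 0.788). A beta-binomial test of the same reads, which models each circRNA by itself, called flnc.2 (adjusted p = 0.00380), klc1 (0.000745), zc3h12d (0.0237) and LOC107386477 (0.0446). Of these, klc1 was also called by DESeq2 and by the main edgeR fit, and flnc.2, zc3h12d and LOC107386477 by neither. With a minimum of 30 circular reads, edgeR called zc3h12d as well (adjusted p = 0.0331). The rule was met in brain alone by LOC107386477, and in muscle alone by flnc.2, zc3h12d and unannotated.52. The direction of their differences is therefore tied to the selection. For eif3l, whose interval was among the narrowest, the log2 difference was 0.05 with a 95% interval from -0.94 to 1.03.

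**Figure D4:**
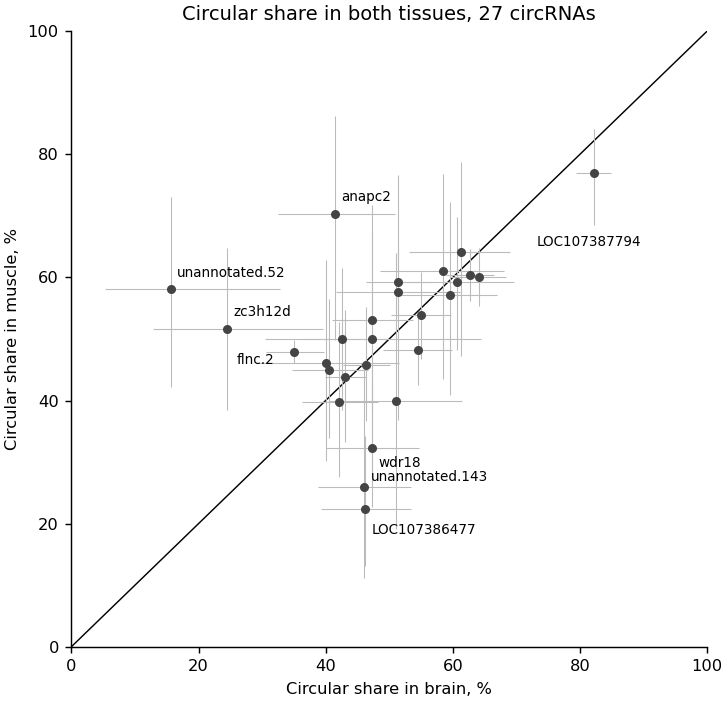
Circular share in muscle against brain for the 27 circRNAs with 20 or more reads in each tissue, in percent; bars are exact 95% binomial intervals of the pooled reads and the line marks equal shares. Of the 27 points, 19 lie within 10 points of the line, and unannotated.52, anapc2 and zc3h12d lie farthest above it.

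No circRNA passed the test for any difference of its share among the 3 ages. It called 0 of 639 circRNAs in brain (0%; 47 had an unadjusted p under 0.05) and 0 of the 43 tested of the set (0 unadjusted). In muscle it called 0 of 292 (0%; 28 unadjusted) and 0 of 26, while the single step from 3.5 to 8.5 weeks called 1 of 292 (0.342%) and 0 of 26. The test of whether the course over age differed between tissues called 0 of 896 (0%; 26 unadjusted) and 0 of 44, with 1 unadjusted, anapc2. DESeq2 on the same columns called 0 in all 3 tests, and the beta-binomial test called 0, 2 and 0, none of them among the 44. The precision was limited. Over the 3 ages the share ranged by a median of 10.9 points for 37 circRNAs with enough reads in brain, and by 9.71 points for 10 in muscle. Such a range holds counting error as well as any change with age, and these were not separated. The smallest range was that of bace1 in brain (60.9%, 61.8% and 61.8%) and of flnc.2 in muscle (48.8%, 47.7% and 47.4%). The largest were vps53, a subunit of a complex that tethers vesicles to the Golgi, in brain (29.8%, 46.8% and 51.3%) and wdr18, a factor of ribosome assembly, in muscle (40%, 17.4% and 31.8%).

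The share of LOC107395747 did not pass the test among ages in brain (adjusted p = 0.902, edgeR), but its pooled shares at 2 ages differed by more than counting error. This circRNA lies on chromosome 5 (26843263 to 26848780, plus strand, both ends exonic). Its brain shares were 27.4%, 39.3% and 36.8% at 3.5 weeks, 48.1%, 48.5% and 53.5% at 8.5 weeks, and 39.6%, 45.6% and 50.8% at 14 weeks. All 3 libraries of 8.5 weeks were above all 3 of 3.5 weeks, and so were all 3 of 14 weeks, while 14 and 8.5 weeks overlapped. The exact intervals of 3.5 and 8.5 weeks, which cover counting error only, did not overlap. Neither such overlap nor the order of the libraries was counted over all circRNAs. The log2 change of the ratio of LOC107395747 from 3.5 to 8.5 weeks was 0.94 (SE 0.65, adjusted p = 0.752, edgeR). In the authors' deposited table for adult against young brain its p was 0.00338, not labelled as adjusted. That table lists 43 of the 44 and gives 4 a p under 0.05, the other three being gulp1 (0.0354), unannotated.37 (0.0396) and ptprz1b.1 (0.0475), where 14.7% of its p-values are under 0.05. In the authors' deposited table for old against adult brain, gulp1 (0.0163) and atp2a2a (0.0473) were under 0.05, with 6.08% of all. In the authors' deposited tables for muscle, 0 of 27 and 0 of 23 listed were under 0.05, against 25.4% and 7.11% of all p-values. Among the 27, listed for adult against young muscle, LOC107386183, anapc2, rabep2, zc3h12d and unannotated.52 had no p-value.

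**Figure D5:**
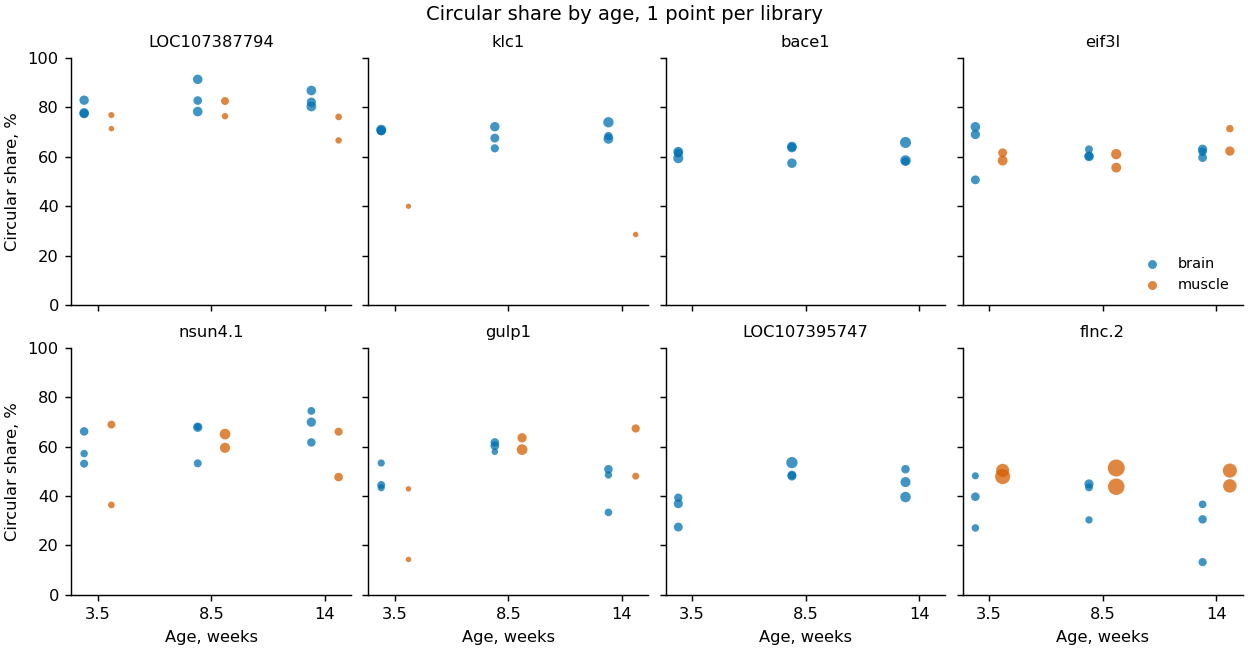
Circular share in percent by age for 8 of the 44 circRNAs, 1 point per library with 5 or more reads (brain blue, muscle orange, larger points for more reads). The points of bace1 and klc1 in brain stay within 57.4% to 74.0%. Those of LOC107395747 at 8.5 weeks lie above those at 3.5 weeks, though its test among ages did not pass.

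Between tissues, more circRNAs were called for circular abundance than for the share, but the tests differ in precision. For flnc.2 the SE of the log2 difference was 0.27 for abundance and 0.52 for the share. Circular reads were scaled to the linear library sizes with TMM factors (given as CPM), and the edgeR quasi-likelihood test called 207 of 896 circRNAs (23.1%), 75 higher in brain (8.37%) and 132 higher in muscle (14.7%). This direction turned with the scaling: library totals in place of TMM gave 297 higher in brain and 90 in muscle, and TMM of the circular reads gave 331 and 89. Of the 44 it called 22, of which 14 were higher in brain and 8 in muscle; of all 424 with 20 or more reads, 42.2% were called. With library totals the 44 split into 27 higher in brain and 2 in muscle, and with TMM of the circular reads into 31 and 2. These scalings also moved the median log2 difference of all circRNAs from 1.16 to 2.00 and 2.08. The circRNAs higher in muscle under all 3 scalings were flnc.2 and zc3h12d. Both met the selection rule in muscle alone and not in brain alone, so their higher level in muscle is tied to the selection. In tissue samples, fewer cells of a type and less RNA per cell cannot be told apart.

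Among the circRNAs higher in brain, 8 had 0 circular reads in muscle. These met the selection through their brain reads alone, so their higher level in brain is given as a description. LOC107395747 had 20, 22 and 28, then 37, 32 and 92, then 53, 52 and 31 circular reads in brain at the 3 ages, so every brain library was above every muscle library. Set against a floor of 3 counts over the 6 muscle libraries, on the TMM scale, it was at least 26.7-fold higher in brain. The same bound was 13.8-fold for ptprz1b.1, 12-fold for LOC107396936.2 and 7.13-fold for myo15aa, an unconventional myosin of hair cells. With 1 muscle read, bace1 had a ratio of 124 (counting interval 22.1 to 4891) and ptpro, a receptor tyrosine phosphatase, 43.0 (7.63 to 1708). With library totals the bounds were 76.3-fold for LOC107395747, 39.3-fold for ptprz1b.1, 34.3-fold for LOC107396936.2 and 20.4-fold for myo15aa, and the ratios were 353 for bace1 and 123 for ptpro. The linear reads of the 8 with 0 circular reads at the same positions were also few in muscle, from 1 to 5 reads in all.

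The circRNAs higher in muscle were present in brain too. Of those below, flnc.2 met the selection rule in muscle alone, so its direction is given as a description. The circRNA flnc.2 reached 3977 ± 802 CPM in the 6 muscle libraries and 104 ± 51.2 in the 9 of brain (mean ± SD), a log2 difference of -5.27 (SE 0.27, adjusted p = 6.93e-81, edgeR). It stayed between -5.53 and -5.15 with libraries left out, including both brain libraries of 3.5 weeks with raised muscle markers, and was -3.76 with library totals and -3.65 with TMM of the circular reads. For eif3l the levels were 966 ± 179 CPM in muscle and 284 ± 97.3 in brain (log2 -1.78, SE 0.28, adjusted p = 3.39e-09, edgeR), and for nsun4.1 they were 761 ± 410 and 207 ± 72.5 (log2 -1.71, SE 0.30, adjusted p = 1.66e-07). With library totals these differences were -0.26 and -0.20 and did not pass. The circRNAs of cox19, atp2a2a, ubr3 and gulp1 were also called higher in muscle with TMM and did not pass with library totals, where ubr3 and gulp1 changed sign.

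With age, the abundance test called 1 of 639 circRNAs in brain (0.156%) and 0 of 43 of the set, and 1 of 292 in muscle (0.342%) and 0 of 26. For gulp1 (chromosome 9, 3411254 to 3411821, plus strand, both ends exonic), the muscle libraries had 3 and 1 circular reads at 3.5 weeks, 84 and 54 at 8.5 weeks, and 12 and 35 at 14 weeks. Its linear reads there moved alike, with 4 and 6, then 59 and 31, then 13 and 17. These are raw counts. The circular totals of the same libraries also moved, with 1343 and 1645, then 4269 and 3316, then 1830 and 1947. For gulp1 the test over the 3 ages gave an adjusted p of 0.0684 (edgeR). The single step from 3.5 to 8.5 weeks, where 4 of 292 circRNAs were called (1.37%), was a log2 rise of 4.50 (SE 0.84, adjusted p = 0.0173), and the step from 8.5 to 14 weeks was -0.99 (SE 0.64, adjusted p = 1.00). Over all 292 circRNAs the median log2 change was 1.23 for the first step and -0.56 for the second. The share of gulp1 in the same libraries was 42.9% and 14.3%, then 58.7% and 63.5%, then 48.0% and 67.3%, and its test among ages did not pass (adjusted p = 0.806, edgeR).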

How the data were processed

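Per the labels' protocols, RNA of frozen tissue was depleted of ribosomal RNA with a human, mouse and rat kit and sequenced as stranded paired-end libraries. The tool named is STAR 2.5.2b, per the submitters' processing notes. Which program called the circles, on which build and annotation, and what counts as a linear read is not given in these sources. The authors deposited raw counts of circular and of linear reads for 1810 circRNAs, a table of positions, strands, hosts and end annotation, and p-values of their own test for 4 comparisons of ages, not labelled as adjusted per the file headers. The count tables held 0 columns of other samples. No sequence was read, since no genome of the files' build was used here.

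CircRNAs are named by host symbol, numbered where a host has more than 1; of the 39 hosts, 23 are named by the file and 9 by a RefSeq table of another assembly, which served for names alone; 7 keep their identifier. In the file the end label was found to run from the lower to the higher coordinate for 29 circRNAs that share an end with an exonic one, so strand gives acceptor and donor. Shares are 100 times circular over circular plus linear reads. Intervals are exact (Clopper-Pearson) at 95%; intervals and the floor of 3 counts cover counting error only.

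The tests were made with edgeR 4.0.16 (quasi-likelihood, Benjamini-Hochberg adjusted) over all circRNAs with 10 or more circular reads (for shares, 1 or more linear) in the libraries of the fit. For the share, circular and linear counts were paired columns with library as a term. For abundance, circular counts were tested with the library sizes and TMM factors of the linear counts. Tissue contrasts are means over the 3 ages. DESeq2 1.42.0, a beta-binomial test (scipy 1.17.1), other scalings, other minima, the replicate number as a block and each library left out were alternatives; 2 more, library totals without TMM and leaving out brain libraries 2 and 3 of 3.5 weeks together, were chosen after seeing the data. Both kinds of fit were tested on simulated counts. No replicate libraries were identical or agreed within sampling noise.

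The 44 circRNAs and the gene lists were chosen with earlier results of these data known. Named with values are the circRNAs with the most reads or the highest share, those nearest to the threshold, those past a test, those with 10 or more circular reads in each tissue, those with an unannotated end and those whose host has another circRNA, the ones with the most reads first; others are given by counts and ranges.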

Additional observations from a re-analysis of the deposited data

How the results depend on the processing

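The number of circRNAs that meet the rule was 20 at a share of 50% or more and 28 in the muscle libraries alone, and 41 to 46 with a library left out. Of the 44, 20 remain at 50%, 18 are among the 28 of muscle, and 39 are those met in brain alone. For the share between tissues, 20 circRNAs were called with the replicate number as a block and 67 by the beta-binomial test, against 36; with a library left out the count was 18 to 39, the lowest without muscle library 3 of 3.5 weeks (18) and without muscle library 2 of 14 weeks (23). Of the 44, 0 were called with no filter, with the replicate block and without brain libraries 2 and 3 of 3.5 weeks, 2 with a minimum of 30 reads (klc1 and zc3h12d), 4 by the beta-binomial test and 0 to 1 with a library left out. For the share over ages, a minimum of 30 reads gave 1 call in brain and 5 in muscle, the block and the beta-binomial test gave 2 each in muscle, and a left-out library gave 0 to 2 in muscle (1 without library 1 and 2 without library 2 of 14 weeks). For abundance between tissues, DESeq2 called 137, TMM of the circular counts 420 and library totals 387, against 207; a left-out library gave 133 (without muscle library 3 of 3.5 weeks) to 204, and 18 to 23 of the 44. The log2 difference of gulp1 turned to 0.50 with TMM of the circular counts and 0.38 with library totals. That of ubr3 turned to 0.54 and 0.43. In the main fit the TMM factors of the linear counts were 1.48 to 1.59 in the brain libraries and 0.479 to 0.601 in those of muscle. Library totals leave these factors out, and TMM of the circular counts replaces them, so these differences move with the scaling. Why the factors differ between the tissues was not tested. For abundance over ages in brain, no filter, a minimum of 30, the block, DESeq2, DESeq2 size factors, TMM of the circular counts and leaving out both brain libraries gave 0, and a left-out library 0 to 2 (2 without library 3 of 3.5 weeks, library 1 of 14 weeks or library 3 of 14 weeks), against 1. In muscle the count of 1 became 2 with no filter, 3 with a minimum of 30, 8 with the block, 6 by DESeq2, 2 with TMM of the circular counts and 0 with DESeq2 size factors. A left-out library gave 0 to 16: 10 (library 1 of 3.5 weeks), 16 (library 3 of 3.5 weeks) and 0 (any 1 of 8.5 or 14 weeks). Of the 44, gulp1 alone was called with no filter, a minimum of 30, DESeq2 and TMM of the circular counts (1 each), and gulp1 and nsun4.1 (2) with the block; 0 to 2 were called with a library left out. For the changed counts the cause was not tested. In brain, same-numbered libraries of different ages had correlations of -0.194 to 0.080, and those with different numbers -0.121 to 0.153. In muscle, 2 libraries per age are too few for this check. Whether a number stands for a shared animal or day was not tested. With a median of 121 circular reads over 15 libraries, counting error is among the limits on the comparison of shares. It is not the only limit for the edgeR tests. Shares varied between libraries about as counting gives (median ratio 0.998 in brain and 0.984 in muscle). For flnc.2 the exact intervals of the tissues, which cover counting error only, did not overlap. Its edgeR interval for the log2 difference ran from -1.83 to 0.20. A missing call can therefore reflect the width of the edgeR interval, whose cause was not tested.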

Other observations

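Some circles had a high share in muscle and a share of a few percent or less in brain, although brain held linear reads at the same positions, which puts them outside the set described above. The clearest was myo5aa, from the gene of an unconventional myosin that carries vesicles, with 62 circular and 57 linear reads in muscle and 0 and 769 in brain. Likewise LOC107388760 had 30 and 26 reads in muscle and 1 and 28 in brain. The reverse was not seen among the 23 circRNAs chosen in brain with 20 or more reads in muscle, where the lowest muscle share was 22.4%. At the looser threshold of 40%, 4 of these 23 lay below it in muscle. Of the 27 chosen in muscle with 20 or more reads in brain, 15 reached 40% in brain. The circRNAs named here were picked after their values were seen, and no separate test was made of them.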
